A study of Mus musculus with 18 samples.

Results

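The genes described here encode the chains of the interferon receptors, the Janus kinases that those chains carry, and the SOCS proteins that shut the kinases down: Ifngr1, Ifngr2, Ifnar1, Ifnar2, Jak1, Jak2, Tyk2, Socs1 and Socs3. They were chosen by gene name, are 9 of the 55416 genes counted, and all 9 were abundant enough to be tested among 17040 tested genes. The RNA came from splenic monocytes, isolated by cell sorting, of mice that had received IVIg (intravenous immunoglobulin, the pooled antibody used to treat autoimmune disease) or phosphate-buffered saline (PBS), at day 3. The 6 groups were Dectin-1 knockout mice given IVIg or PBS, FcgRIIb knockout mice given IVIg or PBS, and C57BL/6 wild-type (WT) mice given IVIg or PBS, with 3 independent mice in each group by the series' design text. Clec7a encodes Dectin-1, which recognises fungal beta-glucans, and Fcgr2b encodes FcgRIIb, the Fc receptor for immunoglobulin G that inhibits cell activation. The labels give genotype, treatment, day and cell type, and no age.

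Interferon gamma binds a receptor built from the ligand-binding chain IFNGR1 and the signalling chain IFNGR2, which carry JAK1 and JAK2. Type I interferons bind IFNAR1 and IFNAR2, which carry TYK2 and JAK1, and in both cases the kinases phosphorylate STAT transcription factors that enter the nucleus. SOCS1 and SOCS3 are induced by this signalling and block it, SOCS1 mainly at the interferon receptors and SOCS3 mainly at receptors that share gp130. In mononuclear phagocytes interferon gamma raises antigen presentation and killing of microbes, and loss of its receptor from myeloid cells has been proposed as a way in which IVIg acts, so Ifngr1 and Ifngr2 were tested for such a loss.

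Because SOCS genes are classic targets of STAT proteins, the 250 bases before the transcription start of Socs1 and Socs3 are shown beside those of the interferon gamma receptor genes, from the RefSeq table for GRCm38.p6 and on the strand of each gene. Capitals mark matches to the GAS letters TTCNNNGAA, a site type of STAT dimers, or to the ISRE core, GAAA repeated after 2 bases of any kind, a site type of the factors that act below type I interferon. Both strands were searched.
Ifngr1 (chr10:19591699-19591948, plus strand): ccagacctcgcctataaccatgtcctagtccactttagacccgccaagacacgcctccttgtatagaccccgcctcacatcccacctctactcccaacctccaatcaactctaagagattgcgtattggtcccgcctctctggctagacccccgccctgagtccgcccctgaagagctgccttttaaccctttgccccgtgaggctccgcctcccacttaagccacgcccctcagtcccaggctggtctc
Ifngr2 (chr16:91546809-91547058, plus strand): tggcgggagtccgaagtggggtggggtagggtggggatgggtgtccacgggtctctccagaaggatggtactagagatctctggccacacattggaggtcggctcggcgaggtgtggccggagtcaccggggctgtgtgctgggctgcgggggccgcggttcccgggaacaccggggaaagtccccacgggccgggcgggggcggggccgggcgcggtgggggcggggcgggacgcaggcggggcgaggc
Socs1 (chr16:10785537-10785786, minus strand): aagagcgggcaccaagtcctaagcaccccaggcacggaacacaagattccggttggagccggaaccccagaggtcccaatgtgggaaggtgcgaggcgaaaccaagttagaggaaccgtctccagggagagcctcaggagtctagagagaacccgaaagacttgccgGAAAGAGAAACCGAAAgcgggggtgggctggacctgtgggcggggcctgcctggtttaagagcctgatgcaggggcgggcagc
Socs3 (chr11:117969367-117969616, minus strand): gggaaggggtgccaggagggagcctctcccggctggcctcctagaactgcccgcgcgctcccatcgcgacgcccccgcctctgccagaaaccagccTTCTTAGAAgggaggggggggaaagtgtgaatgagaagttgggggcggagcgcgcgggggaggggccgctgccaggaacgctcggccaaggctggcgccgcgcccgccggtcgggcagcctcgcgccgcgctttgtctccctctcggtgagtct
The promoter of Socs3 held 1 GAS match, TTCTTAGAA, that began 154 bases before the start. In Socs1 a pair of overlapping ISRE core matches, GAAAGAGAAA and GAAACCGAAA, began 83 and 77 bases before the start. Neither motif was found in these windows of Ifngr1 and Ifngr2. All 9 genes had an entry in the table, and among the other 5 only Ifnar2 held a match, the GAS letters TTCCTGGAA at 214 bases before its start. Over all 32851 promoter windows in the table, 7.02% held the GAS letters and 2.98% the ISRE core, so a match is a description of the sequence and not evidence of binding.

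Of the 9 genes, 4 lie on chromosome 16. Ifnar2, Ifnar1 and Ifngr2, with Il10rb (a chain of the interleukin 10 receptor) between Ifnar2 and Ifnar1, form a cluster of 192.8 kb on the plus strand (GRCm39, positions 91169671 to 91362511), and Socs1 lies apart at 10600104 to 10603400 on the minus strand. Ifngr1 is on chromosome 10 (19467697 to 19485977, plus strand) and Socs3 on chromosome 11 (117856905 to 117860873, minus strand). Jak1 is on chromosome 4 (101009564 to 101122479, minus strand), Jak2 on chromosome 19 (29229228 to 29290480, plus strand) and Tyk2 on chromosome 9 (21015364 to 21042539, minus strand). Exons of Ifnar2 share 315 bases with the gene model Gm21970 on the same strand, and exons of Tyk2 share 554 bases with 1700084C06Rik on the opposite strand. The counting did not separate strands, so reads in those stretches counted for both genes.

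Total counts lay between 16996494 and 48958909 in 17 libraries, whereas FcgRIIb knockout PBS replicate 2 held 719494, where 3 counts correspond to 4.17 CPM (counts scaled to library size), and is called the shallow library. Clec7a was at 0.247 to 4.05 CPM in the 6 Dectin-1 knockout libraries, against 360 to 956 CPM in the other 12. Fcgr2b stayed at 130 to 250 CPM in the FcgRIIb knockout libraries, against 208 to 318 CPM in the others, so its transcript does not mark that knockout. Summed markers of the monocyte lineage were at 23701 to 46893 CPM, and the 15 T cell markers together at 13.6 to 79.2 CPM. Expression also leaned on exon length to a different degree in each library, with a Spearman correlation between exon length and relative expression from -0.65 in FcgRIIb knockout PBS replicate 3 and FcgRIIb knockout IVIg replicate 1 to 0.58 in WT IVIg replicate 1.

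Ifngr1 was by far the most abundant of the 9 transcripts when counts were scaled to exon length. Its level averaged 376 ± 55.7 CPM per kilobase of exon (SD, n = 18 libraries), above 99.1% of tested genes. The next levels were 63.0 for Ifnar2, 57.4 for Ifngr2 and 47.0 for Jak1, on the same scale. Lower down stood Jak2 with 24.9, Socs3 with 22.5, Ifnar1 with 22.4 and Tyk2 with 18.2 CPM per kilobase. Socs1 was the lowest with 0.803 CPM per kilobase, above only 28.4% of tested genes, and had 1 count in the shallow library. Among neighbours in this order, Ifngr1 and Ifnar2, Jak1 and Jak2, and Tyk2 and Socs1 did not overlap in any library, and the other 5 pairs of neighbours overlapped. The ligand-binding chain was thus in excess of the signalling chain of the interferon gamma receptor at the RNA level in every library, with a length-scaled Ifngr1 to Ifngr2 ratio of 6.56 at the median (range 4.24 to 9.44).

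**Figure D1:**
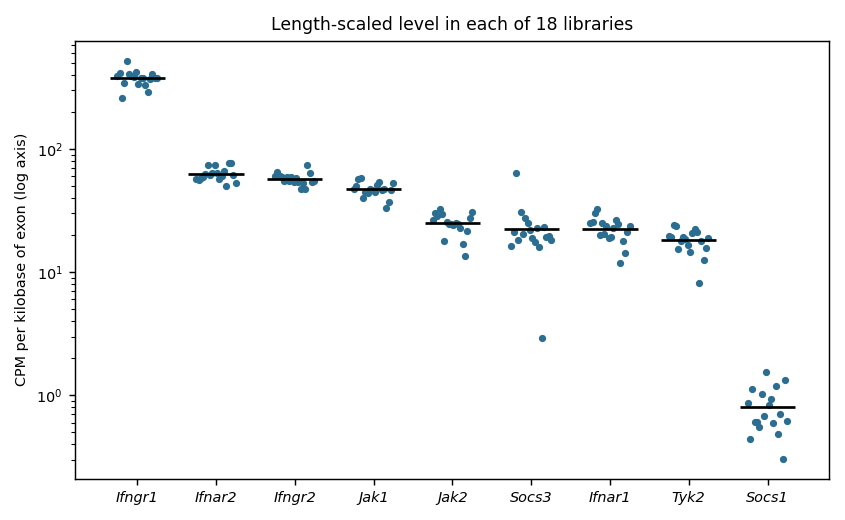
Length-scaled levels of the 9 genes (CPM per kilobase of exon, log axis) in the 18 libraries, with 1 point per library and a bar at the mean. Ifngr1 stands at a mean of 376 and Socs1 at 0.803, and the other 7 genes lie between 18.2 and 63.0.

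None of the 9 genes passed the test in any comparison. With edgeR's quasi-likelihood test and Benjamini-Hochberg adjustment, 0 of 9 had an adjusted p under 0.05 in each of 11 comparisons, and 0 of 9 did so with DESeq2 and with limma voom. The share of all tested genes called by edgeR was itself small, 0.00587% for IVIg against PBS in WT, 0.0411% and 0.0528% for Dectin-1 knockout against WT in PBS and in IVIg, 0.0117% for FcgRIIb knockout against WT in IVIg, and 0% in the other 7 comparisons. At an unadjusted p under 0.05, edgeR gave Jak2 for IVIg against PBS in FcgRIIb knockout monocytes, where 3.19% of tested genes reached it, and Jak2 and Socs3 for FcgRIIb knockout against WT in PBS, where 9.65% did. DESeq2 gave those same 3 results. Limma voom gave Jak2 in 5 comparisons. These were IVIg against PBS in WT and in the FcgRIIb knockout, and FcgRIIb knockout against WT in PBS. The others were the IVIg response of the FcgRIIb knockout set against that of WT and of the Dectin-1 knockout. All of these except IVIg against PBS in WT use the same FcgRIIb knockout PBS libraries, the shallow library among them. The edgeR and DESeq2 results above use them too, so these results are not independent. Voom also gave Ifnar2 in 2, the IVIg responses of each knockout against WT. The share of all tested genes at this threshold is not given for DESeq2 and voom, so these counts have no background beside them. Without a call, the values below are given with their intervals, which show the size of change that each comparison leaves possible.

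**Figure D2:**
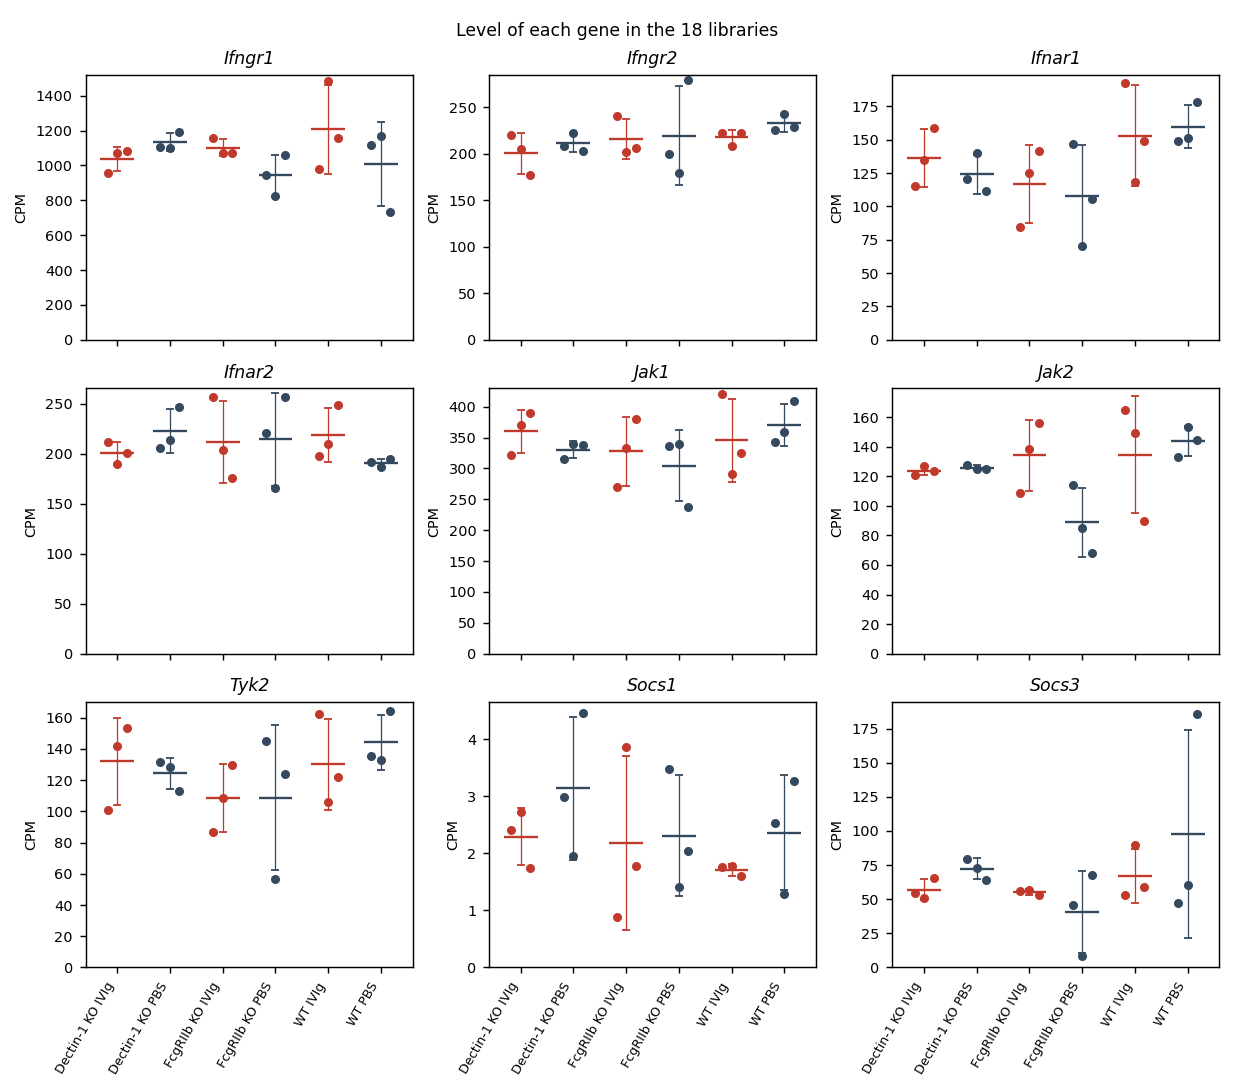
CPM of the 9 genes in the 6 groups, with 1 point per library, the mean and bars of 1 SD (n = 3 each), IVIg in red and PBS in dark blue. Ifngr1 spans 733 to 1483 CPM and Ifngr2 177 to 279 CPM over all 18 libraries, and WT PBS replicate 3 stands out in Socs3 at 185 CPM.

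Ifngr1, the ligand-binding chain of the interferon gamma receptor, did not pass the test for IVIg in any genotype, and its values lay on opposite sides of the controls in the 2 knockouts. Dectin-1 knockout monocytes had 956, 1072 and 1082 CPM after IVIg, against 1108, 1098 and 1191 CPM after PBS. In FcgRIIb knockout monocytes the values were 1160, 1073 and 1073 CPM after IVIg, against 944.5, 826 and 1057 CPM after PBS. All 3 IVIg libraries lay below the PBS libraries in the Dectin-1 knockout and above them in the FcgRIIb knockout, in each case the only gene of the 9 whose groups did not overlap, where 4.42% of tested genes separated downward (4.37% upward) in the Dectin-1 knockout and 5.76% upward (1.28% downward) in the FcgRIIb knockout. WT monocytes had 977, 1483 and 1160 CPM after IVIg, against 1119, 1171 and 733 CPM after PBS, and these groups overlapped.

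The log2 fold change of Ifngr1 for IVIg over PBS was -0.13 ± 0.21 (SE) in the Dectin-1 knockout, 0.22 ± 0.21 in the FcgRIIb knockout and 0.26 ± 0.21 in WT. Averaged over the 3 genotypes it was 0.12 ± 0.12, with a 95% interval from -0.14 to 0.37, so a mean level after IVIg under 90.8% or over 129% of the PBS level fell outside it (edgeR's quasi-likelihood test, unadjusted p = 0.352). An exact two-sided permutation test on log2 CPM, with treatments exchanged within genotypes over 8000 assignments, gave p = 0.2795, where 0.00025 was the smallest p possible. Within 1 genotype that test cannot go below 0.1, the value it gave in each knockout. The IVIg response of the Dectin-1 knockout minus that of the FcgRIIb knockout, a contrast added after these values were seen, was -0.34 ± 0.30 (95% interval -0.97 to 0.28, adjusted p = 1 by edgeR).

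Set against WT, the IVIg response of Ifngr1 differed by -0.39 ± 0.30 in the Dectin-1 knockout (95% interval -1.01 to 0.24) and by -0.04 ± 0.30 in the FcgRIIb knockout. WT PBS replicate 3, the lowest of the 18 libraries for this gene, set part of these values: without it the WT fold change was 0.08 and the difference of the Dectin-1 knockout from WT -0.20. The Spearman correlation of relative expression with exon length was 0.25, 0.36 and 0.53 in the WT PBS libraries, against 0.58, -0.30 and -0.35 in the WT IVIg libraries. Ifngr1 has 2847 bases of exon. Over 28 other settings, a length correction among them, its WT fold change ran from 0.08 to 0.39. The part of the length trend was not tested further. In WT, the summed level of 28 non-classical monocyte markers was 12841 to 15886 CPM after IVIg, against 9268 to 11836 CPM after PBS, with no overlap, and 24 of the 28 had a positive log2 fold change (median 0.61). In the Dectin-1 knockout the sum was 10475 to 12699.5 CPM after IVIg, against 11732 to 13248 CPM after PBS, with overlap, and 21 of the 28 had a negative fold change (median -0.16). In the FcgRIIb knockout it was 10351 to 12007 CPM after IVIg, against 8411 to 10549 CPM after PBS, with overlap, and 22 of the 28 had a positive fold change (median 0.40). The median of the markers had the sign of the Ifngr1 fold change in each genotype, where every 95% interval of Ifngr1 included 0. Among the markers, Fcgr4 and Cd300e were chosen after their values were seen. Fcgr4, an activating Fc receptor, was at 107 to 154 CPM after IVIg in the Dectin-1 knockout, against 187 to 192 CPM after PBS. In the FcgRIIb knockout it was at 114 to 190 CPM after IVIg, against 64.4 to 167 CPM after PBS, with overlap. Cd300e was at 173 to 242 CPM after IVIg in the FcgRIIb knockout, against 116 to 155 CPM after PBS. In the Dectin-1 knockout it was at 172 to 259 CPM after IVIg, against 189 to 292 CPM after PBS, with overlap. The part of these markers in the values of Ifngr1 or the other genes was not tested. In sorted bulk RNA, fewer cells of a type and less RNA per cell cannot be told apart.

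Ifngr2, the signalling chain that limits the response to interferon gamma in many cells, stayed between 177 and 279 CPM and did not pass the test for IVIg. WT monocytes had 222.5, 208 and 222 CPM after IVIg, against 225, 243 and 229 CPM after PBS. All 3 IVIg values lay just below the PBS values, with a fitted level of 93.6% of that after PBS, and Ifngr2 was the only one of the 9 to do so, where 2.88% of tested genes did. The Dectin-1 knockout had 220, 205 and 177 CPM after IVIg, against 208, 222 and 203 CPM after PBS, and the groups overlapped. FcgRIIb knockout monocytes had 241, 201 and 206 CPM after IVIg, against 199, 179 and 279 CPM after PBS, again with overlap, and the widest spread of any group.

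Fold changes of Ifngr2 on the log2 scale were -0.07 in the Dectin-1 knockout, -0.06 ± 0.18 in the FcgRIIb knockout and -0.10 ± 0.18 in WT. Their mean was -0.08 ± 0.10 (95% interval -0.29 to 0.14, unadjusted p = 0.465 by edgeR), which leaves room for a mean level after IVIg of 81.5% to 110% of that after PBS. In WT alone the interval ran from 72.4% to 121%. The exact permutation test within genotypes gave p = 0.453 for a mean difference of -0.06. The response differed from that of WT by 0.02 ± 0.25 in the Dectin-1 knockout and by 0.03 ± 0.26 in the FcgRIIb knockout, neither past the test. Leaving out FcgRIIb knockout PBS replicate 3 turned the fold change in that genotype to 0.17, and leaving out the shallow library gave -0.15.

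**Figure D3:**
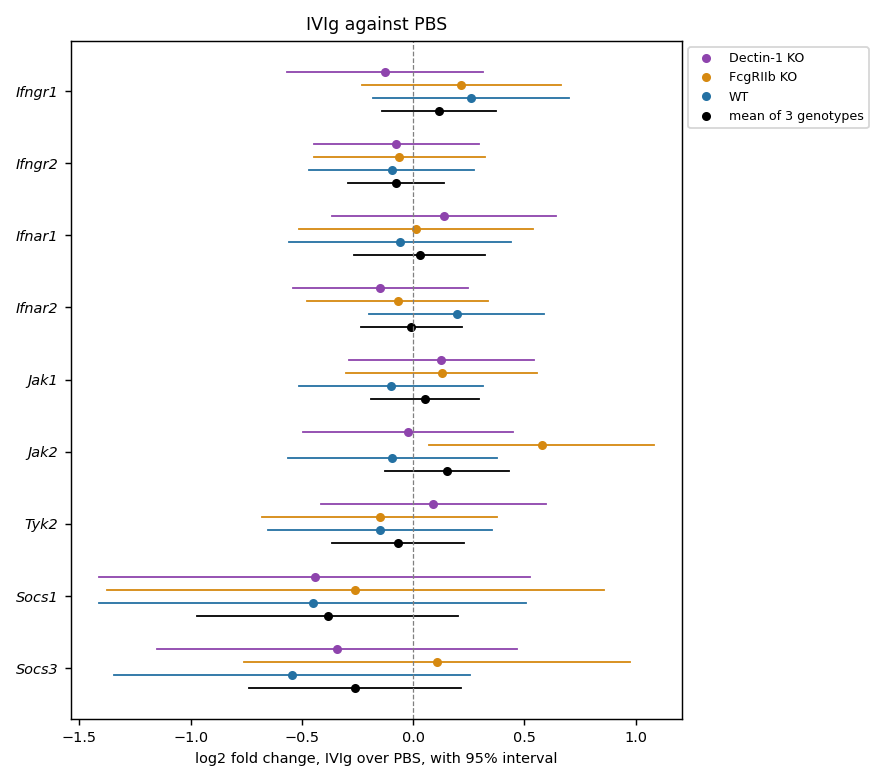
Log2 fold change of IVIg over PBS for the 9 genes in Dectin-1 knockout, FcgRIIb knockout and WT monocytes and as the mean of the 3, each with its 95% interval. Of all the intervals drawn, that of Jak2 in the FcgRIIb knockout (0.58, unadjusted p = 0.0273, adjusted p = 1 by edgeR) is the one that leaves out 0.

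The type I interferon receptor chains were also without a call for IVIg. Ifnar1, which carries TYK2, had a mean log2 fold change of 0.03 ± 0.14, and Ifnar2, the chain with the higher affinity for the ligand, one of -0.01 ± 0.11. In WT, Ifnar2 was at 197, 209.6 and 249 CPM after IVIg, against 192, 187 and 194 CPM after PBS. These groups did not overlap, the only upward case among the 9 genes in WT, where 3.44% of tested genes did so (log2 fold change 0.20 ± 0.19). Without WT IVIg replicate 3, the highest of them, the fold change was 0.099. Ifnar1 ranged from 70.6 to 193 CPM over all libraries, with its lowest value in the shallow library.

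Of the kinases, Jak1 serves both receptors and had a mean log2 fold change of 0.05 ± 0.12 for IVIg over PBS. Tyk2, the partner of IFNAR1, had one of -0.07 ± 0.14, and Jak2, the partner of IFNGR2, one of 0.15 ± 0.13. FcgRIIb knockout monocytes had Jak2 at 108, 139 and 156 CPM after IVIg, against 114, 84.7 and 67.9 CPM after PBS. The groups overlapped by 1 library, and the log2 fold change was 0.58 ± 0.24 (unadjusted p = 0.0273, adjusted p = 1 by edgeR). Dectin-1 knockout monocytes held Jak2 at 121 to 127 CPM after IVIg, against 125 to 128 CPM after PBS, while WT monocytes were at 165, 149 and 89.8 CPM after IVIg, against 133, 153 and 145 CPM after PBS. The response of Jak2 in the FcgRIIb knockout exceeded that in WT by 0.67 ± 0.33 on the log2 scale, without passing the test (unadjusted p = 0.0555 by edgeR). That difference was 0.43 (unadjusted p = 0.193 by edgeR) without WT IVIg replicate 3, and 1.002 (unadjusted p = 0.00943, adjusted p = 0.608 by edgeR) without FcgRIIb knockout PBS replicate 1. Without FcgRIIb knockout PBS replicate 3, which had the lowest Jak2 level, the fold change in that genotype was 0.34 (unadjusted p = 0.213 by edgeR), and without replicate 1 it was 0.91 (unadjusted p = 0.00436).

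The feedback inhibitors had the widest intervals. Socs3 was at 54.6, 50.6 and 65.6 CPM in Dectin-1 knockout monocytes after IVIg, against 79.6, 73.1 and 64.1 CPM after PBS. FcgRIIb knockout monocytes had 56.1, 56.9 and 52.8 CPM after IVIg, against 46.1, 8.47 and 67.7 CPM after PBS, the 8.47 CPM being 6 counts in the shallow library. In WT the values were 53.1, 89.6 and 58.7 CPM after IVIg, against 47.4, 60.7 and 185 CPM after PBS. A single library, WT PBS replicate 3, thus held the highest Socs3 of all 18, and the groups overlapped in all 3 genotypes. The WT log2 fold change of -0.54 ± 0.38 became 0.31 without that library, and the mean over genotypes of -0.26 ± 0.23 became 0.02. Socs1, which holds the ISRE core pair shown above, was at 0.887 to 4.46 CPM on 1 to 136 counts per library, with a mean log2 fold change of -0.38 ± 0.28.

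**Figure D4:**
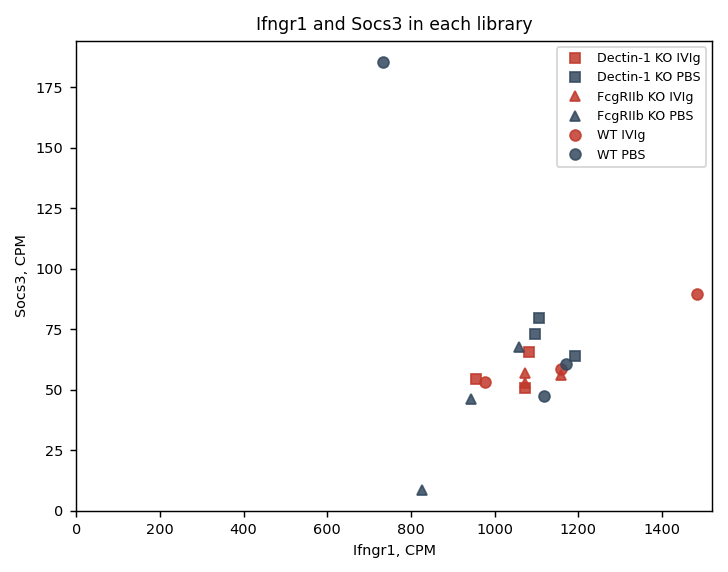
Ifngr1 (CPM) against Socs3 (CPM) in each of the 18 libraries, IVIg in red and PBS in dark blue. WT PBS replicate 3 lies alone with the lowest Ifngr1, 733 CPM, and the highest Socs3, 185 CPM, and the shallow FcgRIIb knockout library has the lowest Socs3, 8.47 CPM.

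Among the 9 genes, genotype without IVIg gave more separation than treatment did, though again no call. Over all tested genes, too, 8.4% and 7.95% separated downward in the Dectin-1 and FcgRIIb knockouts in PBS, against at most 4.42% for IVIg. Upward the order was mixed. The shares were 7.92% and 3.63% for these knockouts in PBS, and 3.44% in WT, 4.37% in the Dectin-1 knockout and 5.76% in the FcgRIIb knockout for IVIg. Both knockouts are set against the same 3 WT PBS libraries. The 9 genes are also not independent, with a Pearson r over the 18 libraries of 0.92 for Ifnar1 and Tyk2 and 0.66 for Ifnar1 and Jak1, though -0.47 for Ifngr2 and Jak1. In PBS, all 3 Dectin-1 knockout libraries lay below the WT libraries for 5 of the 9 genes, Ifngr2, Ifnar1, Jak1, Jak2 and Tyk2, where 8.4% of tested genes did so, and above them for Ifnar2, where 7.92% did. Jak2 showed it with 128, 125 and 125 CPM in the Dectin-1 knockout, against 133, 153 and 145 CPM in WT, and a log2 fold change of -0.19 ± 0.22. For Ifnar1 the levels were 121, 139.9 and 111 CPM in the knockout, against 149, 152 and 178 CPM in WT, with -0.36 ± 0.24. The gaps were narrow, and the smallest unadjusted p among the 9 was 0.146 (edgeR). Fold changes of Ifngr1, Ifngr2, Jak1, Tyk2 and Ifnar2 were 0.17 ± 0.21, -0.14 ± 0.18, -0.16 ± 0.20, -0.21 ± 0.24 and 0.22 ± 0.19. Without WT PBS replicate 3 those of Jak1 and Tyk2 were -0.088 and -0.11, and without Dectin-1 knockout PBS replicate 3 that of Ifnar2 was 0.13. The non-classical monocyte markers had a median of 0.46 in the same comparison, with 22 of 28 positive, and their part was not tested.

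Exon length differed among these genes, and its part in the separations was not tested beyond a correction for each library's length trend. Ifnar1, Jak1, Jak2 and Tyk2 have 5030 to 7227 bases of exon, Ifngr2 has 3767 and Ifnar2 has 3329, around a median of 3457.5 for tested genes. The Spearman correlation of relative expression with exon length was -0.33 to 0.26 in the Dectin-1 knockout PBS libraries, against 0.25 to 0.53 in the WT PBS libraries. After that correction, the log2 fold changes were -0.30 for Ifnar1, -0.17 for Jak2, -0.06 for Jak1 and -0.12 for Tyk2. Those of Ifnar1 and Jak2 had been -0.36 and -0.19, so they moved little, while Jak1 and Tyk2 came nearer to 0 and Ifngr2, at -0.19, moved away from it. Summed erythroid markers were at 13.6 to 17.2 CPM in the Dectin-1 knockout PBS libraries, against 4.67 to 9.23 CPM in the WT PBS libraries, with 0 of 10 counted markers at 0 throughout, and their part was not tested.

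In PBS, FcgRIIb knockout monocytes lay below WT without overlap for 3 of the 9 genes, Ifnar1, Jak1 and Jak2, where 7.95% of tested genes did, and above it for none, where 3.63% did. Jak2 gave the smallest p, with 114, 84.7 and 67.9 CPM in the knockout, against 133, 153 and 145 CPM in WT, a log2 fold change of -0.67 ± 0.24 (unadjusted p = 0.0118, adjusted p = 0.503 by edgeR). It was -0.62 with the length correction, -0.66 without the shallow library, -0.45 without replicate 3 and -1.01 without replicate 1, where its adjusted p was 0.0772, the smallest under any alternative. Ifnar1 was at 147, 70.6 and 105 CPM in the knockout, against 149, 152 and 178 CPM in WT, with -0.46 ± 0.25, and Jak1 had -0.31 ± 0.21. Corrected for length these became -0.32 and -0.10. Without FcgRIIb knockout PBS replicate 1 the value of Ifnar1 was -0.73 (unadjusted p = 0.0212, adjusted p = 0.163 by edgeR), and without replicate 3 that of Jak1 was -0.15. The receptor for interferon gamma showed no such separation, with -0.09 ± 0.21 for Ifngr1 and -0.04 ± 0.18 for Ifngr2.

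Socs3 in the same comparison, at 46.1, 8.47 and 67.7 CPM in the FcgRIIb knockout against 47.4, 60.7 and 185 CPM in WT, had a log2 fold change of -0.93 ± 0.41 (unadjusted p = 0.0364, adjusted p = 0.516 by edgeR). It was -0.08 without WT PBS replicate 3 and -0.79 without the shallow library, so the value rested largely on 1 WT library. Plasma cell markers summed to 758 to 2262 CPM in the FcgRIIb knockout PBS libraries, against 446 to 497 CPM in WT, B cell markers to 367 to 425 CPM against 198 to 295 CPM, and erythroid markers to 12.3 to 25.4 CPM against 4.67 to 9.23 CPM. Ighm held most of the B cell sum, at 325 to 355 CPM against 176 to 265 CPM. Mean Pax5 (1.05 against 2.12 CPM), Cr2 and Ighd were lower in the knockout. Igkc (297 to 1007 against 11.9 to 32.3 CPM) and Jchain (99.9 to 703 against 3.85 to 15.1 CPM) held most of the plasma cell difference. Mean Sdc1 and Prdm1 were lower in the knockout. None of these markers was at 0 in all libraries, and their part in these differences was not tested.

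After IVIg the genotypes overlapped for all 9 genes, in both knockouts. The log2 fold changes over WT lay between -0.24 (Socs3) and 0.40 (Socs1) in the Dectin-1 knockout, and between -0.39 (Ifnar1) and 0.43 (Socs1) in the FcgRIIb knockout, with smallest unadjusted p-values of 0.310 and 0.124 (edgeR). Of all tested genes, 2.52% lay above and 3.7% below WT without overlap in the Dectin-1 knockout, and 5.76% above and 4.55% below in the FcgRIIb knockout. Neutrophil markers summed to 249 to 1600 CPM in the Dectin-1 knockout after IVIg, against 164 to 244 CPM in WT after IVIg. Among them Retnlg, a resistin-like gene of neutrophils, was the only gene of any list used here to be called, with a log2 fold change of 4.27 ± 0.79 (adjusted p = 0.0430 by edgeR). The part of these cells in the values of the 9 genes was not tested.

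**Figure D5:**
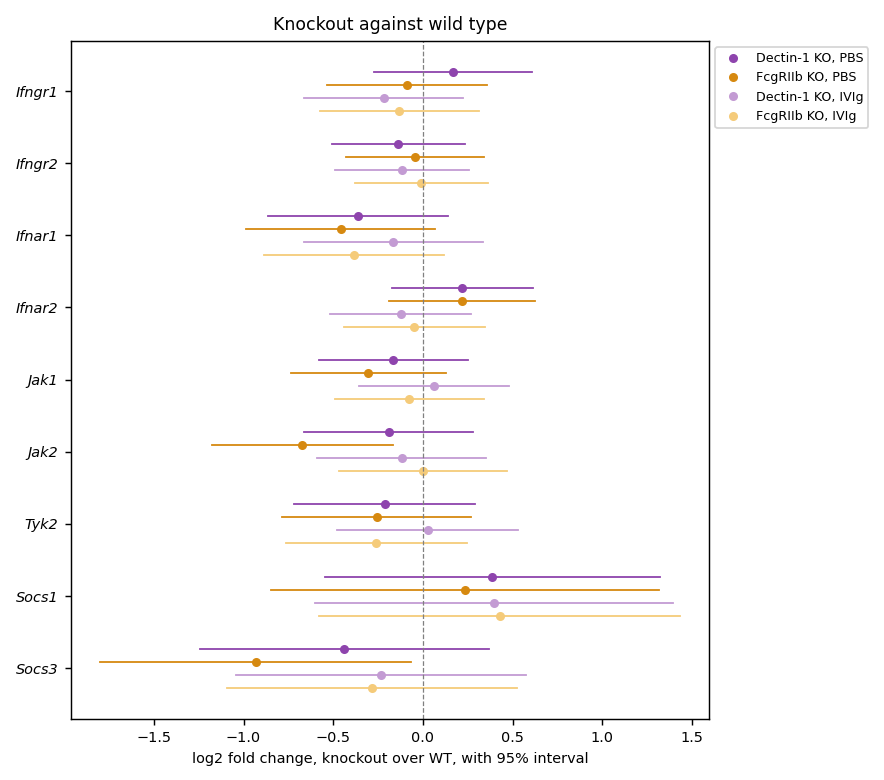
Log2 fold change over WT for the 9 genes in Dectin-1 knockout and FcgRIIb knockout monocytes, after PBS and after IVIg, with 95% intervals. The intervals of Jak2 (-0.67) and Socs3 (-0.93) in the FcgRIIb knockout after PBS leave out 0, and all others include it.

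Ordering the 6 groups by mean CPM for each gene gave 45 pairs of neighbouring groups, and in 44 the means differed by less than the larger SD of the pair. The exception was Jak2, where the FcgRIIb knockout after PBS, at 88.9 ± 23.4 CPM, stood below the other 5 groups, whose means were 124 to 144 CPM. Sorting places close means side by side, so small gaps between neighbours were favoured in advance and the count does not measure sameness. Ifnar1 had all 5 pairs within the larger SD, yet its means ran from 160 ± 16.1 CPM in WT after PBS to 108 ± 38.1 CPM in the FcgRIIb knockout after PBS. For Ifngr1 the order ran from 1207 ± 256 CPM in WT after IVIg, through 1132 ± 51.5 in the Dectin-1 knockout after PBS, 1102 ± 50.1 in the FcgRIIb knockout after IVIg, 1036 ± 70.1 in the Dectin-1 knockout after IVIg and 1008 ± 239 in WT after PBS, to 943 ± 116 in the FcgRIIb knockout after PBS (SD, n = 3 each). Ifngr2 ranged only from 201 ± 22.0 CPM in the Dectin-1 knockout after IVIg to 232 ± 9.27 CPM in WT after PBS.

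The genes whose log2 CPM followed Ifngr1 most closely over the 18 libraries were Slc41a3 (Pearson r 0.88) and Scarb1, a scavenger receptor for high-density lipoprotein (0.86), among 8656 candidates of at least 10 CPM. For Ifngr2 they were Rpl7l1 (0.79), Mrfap1 (0.79) and Utp23 (0.78). When the shallow library was left out, neither Slc41a3 nor Scarb1 was among the first 3 for Ifngr1, and of the 3 for Ifngr2 only Utp23 was. These are descriptions of libraries that also share depth and length trends.

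The ligands themselves were scarcely transcribed in these cells. Ifng had 38 counts in 5 libraries and Ifnb1 29 counts in 5, both summed over all 18, and Ifna1, Ifna2, Ifna4, Ifna5, Ifne, Ifnl2 and Ifnl3 had 0. Of the 16 ligand genes listed only Il18 and Il27, cytokines that monocytes make, were tested. Il27 had a mean log2 fold change of -0.29 ± 0.19 for IVIg over PBS and Il18 one of 0.10 ± 0.22, neither past the test.

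Among genes downstream of the receptors, none was called for IVIg. Of 36 tested genes known to be induced by interferon gamma, 26 had a positive and 10 a negative mean log2 fold change over the 3 genotypes, with a median of 0.12, against 9288 positive and 7752 negative and a median of 0.02 over all tested genes. Cd74, the invariant chain of class II antigen presentation, had 0.34 ± 0.16 (unadjusted p = 0.0453 by edgeR), and Cxcl9, a chemokine that attracts T cells, had 0.68 ± 0.32 (unadjusted p = 0.0468). Neither passed after adjustment (adjusted p = 1 for both). They were named for the smallest unadjusted p of the list. The share of all tested genes under 0.05 unadjusted is not given for this comparison, so these p-values have no background beside them. The median of the same list was 0.09 in the Dectin-1 knockout, 0.27 in the FcgRIIb knockout and -0.01 in WT.

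The 41 genes of the type I interferon response had mostly negative values in WT, 33 of 41 with a negative fold change for IVIg and a median of -0.25, against a median of 0.01 over all tested genes. Oas3, an antiviral oligoadenylate synthetase, had 161 ± 25.3 CPM after IVIg and 235 ± 46.9 CPM after PBS in WT (log2 fold change -0.55 ± 0.23, unadjusted p = 0.0257 by edgeR), and Oasl1, a relative of it, had -0.49 ± 0.25. Both were named for the smallest unadjusted p of the list, and no share of all tested genes is given beside that p. The list's median was -0.0046 in the Dectin-1 knockout and 0.03 in the FcgRIIb knockout, and 0 of 41 genes were called in each. The STAT family, the transcription factors that these receptors switch on, had 0 of 7 tested genes called, with a median of -0.18 in WT, 0.15 in the Dectin-1 knockout and 0.13 in the FcgRIIb knockout.

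The 18 other JAK and SOCS family members and brakes of the pathway had a median of 0.04 for the mean IVIg response, 12 positive and 6 negative, and 0 calls. Socs5 had 0.25 ± 0.13 and Socs6, like it a less studied SOCS protein, -0.19 ± 0.13. In PBS the FcgRIIb knockout showed 14 of the 18 with negative fold changes over WT, with a median of -0.20 against -0.05 over all tested genes. Ptpn1, the phosphatase PTP1B that removes phosphate from JAK2 and TYK2, had -0.86 ± 0.28 (unadjusted p = 0.00641, adjusted p = 0.503 by edgeR). Its level was 116 to 428 CPM in the knockout, against 518 to 737 CPM in WT. Jak3 was at 0 to 21.8 CPM against 15.7 to 27.8 CPM, and Pias4 at 1.41 to 25.6 CPM against 24.1 to 27.0 CPM. The shallow library belongs to this knockout group, and its part in these signs was not tested. Other cytokine receptors that use JAKs, a list with Il6st, Il2rg and Csf2rb among its genes, had 3 positive and 9 negative values in that comparison. Their median was -0.45, and Lifr, the receptor of leukaemia inhibitory factor, had -1.03 ± 0.31 (unadjusted p = 0.00361, adjusted p = 0.503 by edgeR). The corresponding counts in the Dectin-1 knockout were 1 positive and 11 negative, with a median of -0.40 against -0.02 over all tested genes, and Lifr had -0.67 ± 0.28 (unadjusted p = 0.0253 by edgeR). No share of all tested genes is given beside this last p. Both comparisons use the same 3 WT PBS libraries.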

How the data were processed

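The deposited unit is the raw count per gene. The authors counted reads over Ensembl release 104 genes of GRCm39 using featureCounts 2.0.2 and gave each gene's exon length in bases, per the file headers. STAR was the aligner, per the submitters' processing notes, and the kit kept strand, per the labels' protocols. The recorded command sets no strand option and lets a read count for each gene it overlaps. Another 18 columns could not be tied to a sample and stayed unused, and 1492 genes without a symbol, with 0.125% to 0.450% of a library's counts, stayed in the totals.

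Genotype and treatment labels set the groups. Replicate numbers are accession order and serve as names. Some title codes are shared by 2 libraries, and only the series' design text says that the mice were independent.

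After filterByExpr and TMM scaling, edgeR 4.0.16 (run in R 4.3.3) fitted 1 model to all 18 libraries, with 12 residual degrees of freedom, and its quasi-likelihood test gave p-values adjusted by Benjamini-Hochberg within each of 11 comparisons at a threshold of 0.05. Standard errors are the fold change over the root of F, and log2 CPM uses a prior count of 2. The code was checked on simulated data. The difference in IVIg response between the knockouts was added after its values were seen. Alternatives included DESeq2 1.42.0, limma 3.58.1 voom with quality weights, other scalings and filters, a length correction and each library left out. Figures were drawn with Python 3.11.15.

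The 9 genes and all lists were chosen with earlier results of these data known. All 9 are named. Of each other list, called genes were named, up to 4 in a comparison, or up to 2 with the smallest unadjusted p as values, and, for Ifngr1 and Ifngr2, up to 3 genes most correlated with each. Some genes that these rules reach, single STAT genes among them, are not reported here.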

Additional observations from a re-analysis of the deposited data

How the results depend on the processing

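The 9 genes in 11 comparisons gave 99 results, and under 28 other settings 0 of 2772 values passed the threshold. Signs changed in 167, none of these at an unadjusted p under 0.05. No paired analysis was possible because the labels carry no replicate numbers. The count of genes called over the whole table did change. With DESeq2 it was 2, 13 and 1 for IVIg in the Dectin-1 knockout, in the FcgRIIb knockout and on average, 14 and 175 in PBS for the Dectin-1 and FcgRIIb knockouts over WT, 23 for the Dectin-1 knockout over WT in IVIg, 1 for the response of each knockout against WT, and 4 for the responses of the knockouts against each other. With no low-count filter it was 1, 9 and 16 for IVIg in the Dectin-1 knockout, the FcgRIIb knockout over WT in PBS and the Dectin-1 knockout over WT in IVIg. Fitting own groups gave 9 and 5 for the last 2 of these, and voom gave 12 for the Dectin-1 knockout over WT in PBS. The single WT call for IVIg was 0 with a stricter filter, the legacy fit, voom, own groups or second libraries of shared codes left out. For the FcgRIIb knockout over WT in IVIg, it was 1 with RLE factors, the legacy fit, voom, own groups, the length correction or shared codes, and 0 without immunoglobulin, haemoglobin and mitochondrial genes. Beside the lower number of genes or samples tested in some settings, the cause was not tested.

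Among values named in the report, these signs changed. Mean IVIg responses were 0.0074 for Ifnar2 with the legacy fit and -0.036 for Ifnar1 with shared codes left out. Responses against WT in the FcgRIIb knockout were -0.024 (voom) and -0.059 (shared codes) for Ifngr2 and 0.086 for Ifngr1 (length correction), and -0.0100 for Ifngr2 in the Dectin-1 knockout (shared codes). Ifngr2 was 0.038 for the FcgRIIb knockout over WT in PBS (shared codes).

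With each library left out in turn, calls over all genes ran from 6 to 28 and 1 to 6 for the Dectin-1 and FcgRIIb knockouts over WT in IVIg, 0 to 40 for the FcgRIIb knockout over WT in PBS, and for IVIg from 0 to 13 in the Dectin-1 knockout, 0 to 1 in the FcgRIIb knockout, 0 to 1 in WT, and 0 to 1 between the knockouts' responses. The highest for the Dectin-1 knockout came without its IVIg replicate 3, and 40 without FcgRIIb knockout PBS replicate 1. Over WT in PBS, Ifngr1 ran from -0.016 to 0.29 in the Dectin-1 knockout and -0.27 to 0.032 in the FcgRIIb knockout, and Ifngr2 -0.28 to 0.063 in the FcgRIIb knockout. IVIg responses of Ifngr2 ran from -0.14 to 0.0083 in the Dectin-1 knockout and -0.17 to 0.17 in the FcgRIIb knockout, and its difference in the permutation test from -0.10 to 0.0050. Differences from the WT response ran from -0.050 to 0.10 for Ifngr2 in the Dectin-1 knockout, and in the FcgRIIb knockout from -0.076 to 0.26 for Ifngr2 and -0.18 to 0.14 for Ifngr1. Mean responses ran from -0.039 to 0.12 for Ifnar1, -0.063 to 0.038 for Ifnar2, -0.0062 to 0.094 for Jak1 and -0.37 to 0.025 for Socs3, and the WT response of Socs3 from -0.87 to 0.31. Over all settings, the largest value to change sign was the difference of the Socs3 response in the FcgRIIb knockout from WT, 0.65, with a range of -0.21 to 1.01. For the Dectin-1 knockout that difference was 0.20, from -0.65 to 0.53, and its Socs3 over WT in PBS was -0.44, from -0.77 to 0.42. These extremes of opposite sign came without WT PBS replicate 3.

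Depth is lowest in FcgRIIb knockout PBS replicate 2, where Socs1 has 1 count. With 3 mice a group, changes inside the printed intervals cannot be seen. The p-values measure the spread between these mice only if the libraries that share a title code came from different mice, as the design text says.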

Other observations

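The remaining receptors of the class II cytokine family, 8 genes of which 5 were tested, summed to 638 to 683 CPM in WT monocytes after IVIg, against 515 to 581 CPM after PBS, with no overlap. In the Dectin-1 knockout the sums were 486 to 608 CPM after IVIg, against 570 to 627 CPM after PBS, and in the FcgRIIb knockout 521 to 568 CPM after IVIg, against 343 to 555 CPM after PBS, with overlap in both. No gene of this list was called in any comparison by edgeR. Il10ra, the ligand-binding chain for interleukin 10, made up most of the sum in WT, with 509 to 560 CPM after IVIg against 411 to 467 CPM after PBS. Of all tested genes, 3.44% separated upward in that comparison. Il10rb overlapped, at 106 to 145 CPM against 103 to 112 CPM, and Ifnlr1, Il20rb and Il22ra2 averaged at most 0.99 CPM in the WT groups. Il10ra had a log2 fold change of 0.28 ± 0.21 for IVIg over PBS in WT and 0.12 ± 0.12 on average.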
